A study of Capra hircus with 12 samples.

Results

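The genes described here encode the proteins of the mitochondrial ribosome, chosen as every gene whose name in the deposited tables begins with MRPL or MRPS followed by a digit. Of 20326 genes, 77 met this rule, 49 named MRPL for the large subunit and 28 named MRPS for the small subunit. All 77 names equal the RefSeq symbol of the same gene number. The rule uses names and no measured value, but it was set with earlier results of these data known.

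The mitochondrial ribosome is built inside the mitochondrion from ribosomal RNA encoded by the mitochondrial genome and from proteins that are all encoded in the nucleus, made in the cytosol and imported. It translates the few messenger RNAs of the mitochondrial genome, each of which encodes a subunit of a respiratory chain complex or of the ATP synthase. Its small subunit binds the messenger RNA and decodes it, and its large subunit forms the peptide bonds and releases the chain at the inner membrane. The hair follicle cycles between growth, regression and rest, and the dividing matrix cells that build the hair shaft are present during growth.

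The libraries were made from RNA of secondary hair follicles, which grow the cashmere, taken from the skin of goats (Capra hircus) at an age of 1.5 years. May and September represent anagen, in which hair grows. November and December represent catagen, in which the follicle regresses, and February and March represent telogen, in which it rests. A female and a male library were made in every month, which gave 12 libraries over 6 months and 4 for each stage. Every month was sampled in a single stage, so stage and time of year cannot be told apart. The labels name no treatment or breed and do not tell if an animal gave more than 1 library, so p-values measure only the spread between these samples.

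Values are the abundance estimates the authors deposited under the heading TPM, a scale per transcript length on which levels of different genes can be compared. Library sums lay between 904623 and 1127797, and the read depth is unknown. Markers of hair follicle epithelium (KRT5, KRT14, KRT35, KRT25, SOX9 and LHX2, all detected) summed to between 14336 and 22610 in the 8 anagen and catagen libraries and to between 7570 and 12884 in telogen. Of these 6 markers, 3 were lower and 1 was higher in telogen than in catagen. Transcripts of the mitochondrial genome took 1.53% to 3.51% of the signal outside telogen, 9.88% to 11.8% in 3 telogen libraries and 4.63% in the March male, which stands apart from the other telogen libraries. The 7 skeletal muscle markers summed to between 235 and 244 in May and to between 31.5 and 144 in the other months. Without DES, singled out after its values were seen, the other 6 summed to between 217 and 221 in May and to between 3.95 and 8.05 elsewhere, while DES read 17.7 and 23.6 in May and 23.6 to 138 elsewhere. Myeloid markers, 4 genes, summed to between 32.3 and 60.8 in telogen and to between 22.4 and 35.95 in the other stages. Adipocyte markers, 4 genes, summed to between 19.04 and 24.7 in telogen and to between 13.6 and 17.04 in the other stages. The 2 erythroid markers, ALAS2 and AHSP, summed to between 55.97 and 81.8 in telogen and to between 38.8 and 55.4 elsewhere. Summed endothelial and fibroblast markers ranged over 65.95 to 161 and 602 to 1728 across the libraries. The part that these differences play in the values below was not tested. In whole follicles, fewer cells of a type and less RNA per cell cannot be told apart.

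All 77 genes were expressed in every library, with a lowest single value of 7.11, and all 77 passed the filter on low values. Mean levels over the 12 libraries spanned 15.7 to 159 among the MRPL genes, a 10.1-fold range with a median of 40.3, and 11.9 to 211 among the MRPS genes, a 17.7-fold range with a median of 40.5. The highest MRPL levels were those of MRPL23, MRPL17 and MRPL57, which together held 16.8% of the summed MRPL signal. The highest MRPS levels were those of MRPS33, MRPS18C and MRPS15, which held 31.3% of the summed MRPS signal. Both subunits thus had a similar middle level, with a few members far above it.

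Summed over each subunit, the transcripts were about one level in anagen and catagen and lower in telogen. The summed MRPL value was 2637 ± 234 (SD, n = 4) in anagen, 2739 ± 324 in catagen and 1824 ± 209 in telogen. The summed MRPS value was 1436 ± 98.6 (SD, n = 4) in anagen, 1511 ± 171 in catagen and 1020.3 ± 146 in telogen. All 4 telogen libraries lay below all 8 others for both sums. The mean in telogen differed from that in catagen by -33.4% for MRPL and by -32.5% for MRPS. Without the 3 highest members of each subunit the MRPL means were 2143, 2251 and 1595 and the MRPS means 975, 1022 and 728 in anagen, catagen and telogen, so the order did not rest on those genes.

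By month and in the order female, male, the MRPL sum was 2482 and 2396 in May, 2785 and 2883 in September, 3180.3 and 2600.2 in November, 2422 and 2753 in December, 1693 and 1903 in February, and 1619 and 2080.3 in March. The November female had the highest sum of all 12 libraries, and the March female the lowest. The MRPS sum was 1362 and 1342 in May, 1537 and 1503 in September, 1735 and 1359 in November, 1399.7 and 1552 in December, 947 and 1104 in February, and 854 and 1175 in March. The same libraries stood at the top and the bottom. The ratio of the MRPL sum to the MRPS sum stayed between 1.72 and 1.92 in the 12 libraries. Its mean was 1.83 ± 0.0578 (SD, n = 4) in anagen, 1.81 ± 0.0796 in catagen and 1.79 ± 0.0726 in telogen, differences smaller than the spread within a stage. As a share of all signal, the 77 genes took 0.402% to 0.408% in anagen, 0.386% to 0.436% in catagen, 0.269% to 0.28% in 3 telogen libraries and 0.36% in the March male.

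**Figure D1:**
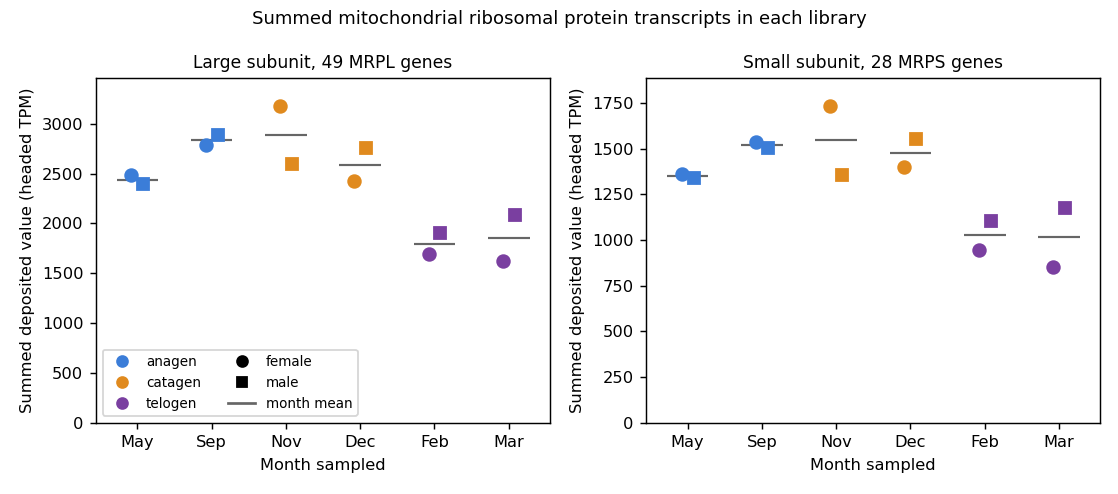
Summed deposited value (vertical axis, headed TPM) of the 49 MRPL genes (left) and the 28 MRPS genes (right) in each of the 12 libraries, by month sampled, with circles for females, squares for males, colour for stage and a line for the mean of each month. The 4 telogen libraries of February and March lie below the other 8 in both panels.

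Telogen was compared with catagen to follow the follicle from regression into rest. Of the 49 MRPL genes 34 fell and 0 rose, and of the 28 MRPS genes 17 fell and 1, MRPS27, rose (limma, adjusted p under 0.05). Across all 16095 genes tested, 19.0% were lower and 24.5% were higher in telogen. The median log2 difference was -0.49 for MRPL and -0.39 for MRPS, beside 0.07 for all genes. The deposited scale bears on the split over all genes: 3948 were higher and 3063 lower as deposited, 4369 and 2052 with libraries scaled to equal sums, 2909 and 3856 with scaling by median ratio, 3145 and 3183 with quantile normalization, and 4356 and 2537 with scaling outside the mitochondrial genome and cytosolic ribosomal protein genes. Over these 4 scalings the MRPL median lay between -0.59 and -0.4 and the MRPS median between -0.48 and -0.3.

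Members fell at every level of expression. Among members with a mean under 20, 7 of 8 fell, beside 12.6% of all genes in that range. Among those from 20 to 50, 28 of 45 fell, beside 24.6%, and among those of at least 50, 16 of 24 fell, beside 35.2%.

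**Figure D2:**
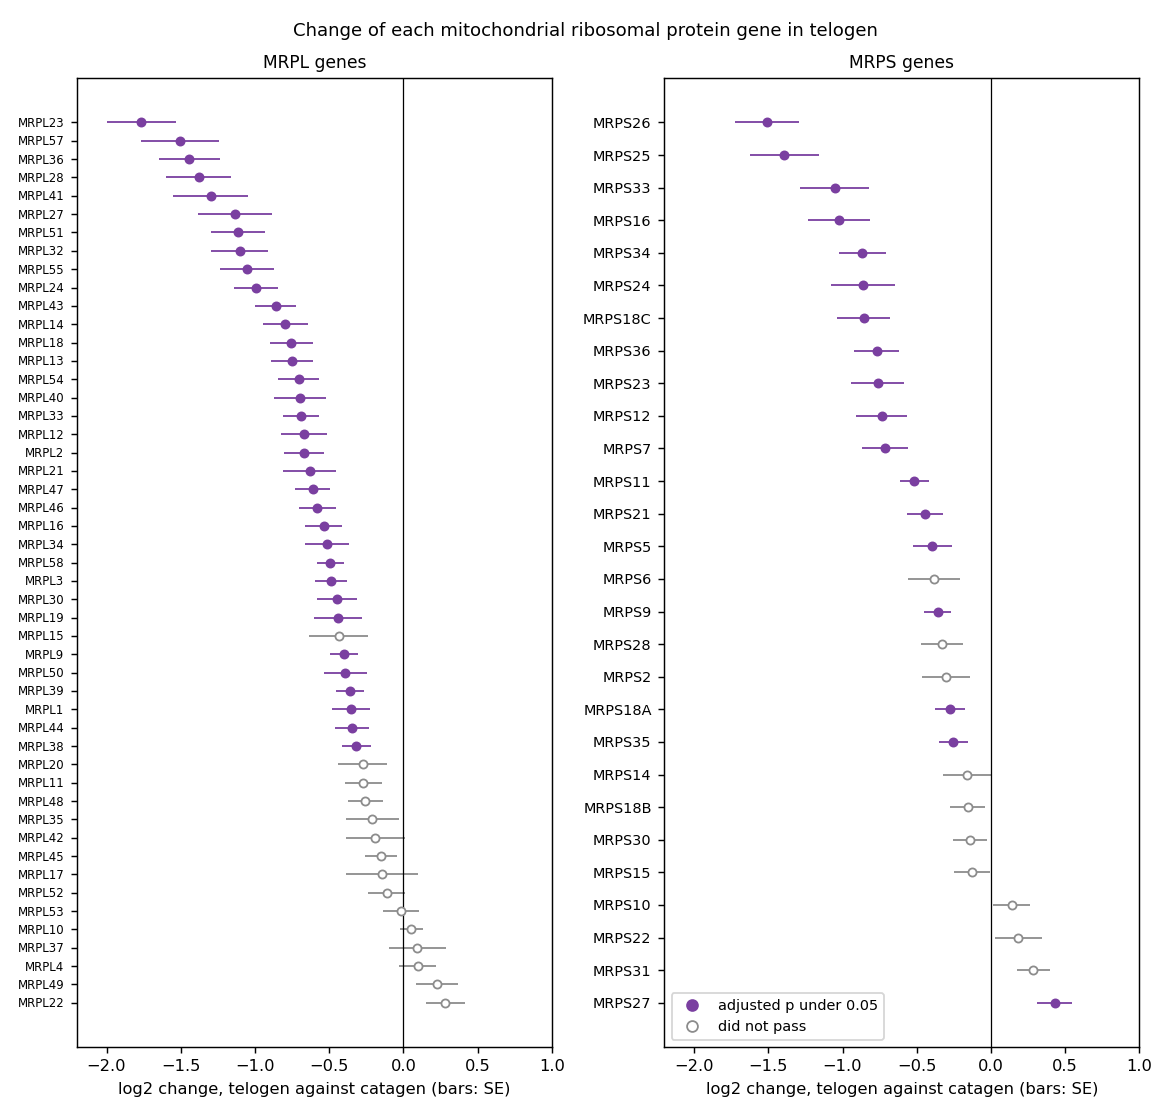
Log2 difference between telogen and catagen (horizontal axis, log2 of the value plus 1, with bars for the standard error) for each MRPL gene (left) and each MRPS gene (right), ordered by size. Filled points passed at an adjusted p under 0.05. The MRPL genes run from -1.77 for MRPL23 to 0.28 for MRPL22, and the MRPS genes from -1.51 for MRPS26 to 0.43 for MRPS27.

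MRPL23 (gene ID 102176502), a protein of the rim where the nascent chain leaves the large subunit, was the most abundant MRPL transcript and fell the most. Its value was 219.9 and 204 in the May female and male, 249 and 206 in September, 283 and 178 in November, 153 and 178 in December, 45 and 66.9 in February, and 38.3 and 84.4 in March. Every telogen library was below every other library, and the highest telogen value was that of the March male. The mean went from 198 ± 57.8 (SD, n = 4) in catagen to 58.6 ± 21.1 in telogen, a log2 difference of -1.77 (SE 0.23, adjusted p = 0.00041).

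MRPL57, a large subunit protein with no bacterial counterpart, had values of 203, 135, 135 and 164 in the 4 catagen libraries and of 46.2, 66.2, 37.7 and 76.1 in the 4 telogen libraries. The groups did not overlap, and the log2 difference was -1.51 (SE 0.26, adjusted p = 0.00119). MRPL36, the homologue of bacterial L36, read 46.1, 26.5, 28 and 29.6 in catagen and 9.99, 9.48, 8.69 and 17.9 in telogen. Here the November female was far above the other catagen libraries and the March male far above the other telogen libraries, yet the groups stayed apart. The log2 difference was -1.44 (SE 0.2, adjusted p = 0.000483). MRPL28, the homologue of bacterial L28, followed with -1.38 (SE 0.22, adjusted p = 0.000787), from a catagen mean of 39.6 ± 10.6 (SD, n = 4) to 14.9 ± 5.87.

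In the small subunit the largest fall was that of MRPS26 (gene ID 102171723), a protein found in mitochondrial but not in bacterial ribosomes. Its value was 82.7 and 68.6 in May, 79.6 and 62.1 in September, 101 and 44.2 in November, 51.6 and 57.05 in December, 17.3 and 19.2 in February, and 19.1 and 27.8 in March. All telogen values were below all others, and the November female was again the highest. The log2 difference from catagen was -1.51 (SE 0.22, adjusted p = 0.000533). MRPS25, also without a bacterial homologue, fell from 53.7 ± 18.8 (SD, n = 4) to 19.9 ± 6.88, a log2 difference of -1.39 (adjusted p = 0.00102). MRPS33, the most abundant MRPS transcript, read 279, 224, 239.8 and 289.6 in catagen and 109.8, 162, 70.4 and 183 in telogen. Its libraries did not overlap between the stages, although the telogen values spread widely. The log2 difference was -1.05 (adjusted p = 0.00394). MRPS16, the homologue of bacterial S16 in which mutations cause a human mitochondrial disease, differed by -1.02 (adjusted p = 0.00268).

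Of the 77 genes, 9 had a positive difference (5 MRPL and 4 MRPS), and 1 of them passed. MRPS27 (gene ID 102175803), a small subunit protein of the pentatricopeptide repeat family, read 18.6 and 14.7 in May, 20.7 and 19.9 in September, 20.3 and 17.5 in November, 19.97 and 18.9 in December, 28.03 and 25.2 in February, and 29.8 and 22.1 in March. All 4 telogen values exceeded all 8 others. The mean rose from 19.2 ± 1.29 (SD, n = 4) in catagen to 26.3 ± 3.39 in telogen, a log2 difference of 0.43 (SE 0.12, adjusted p = 0.0117).

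**Figure D3:**
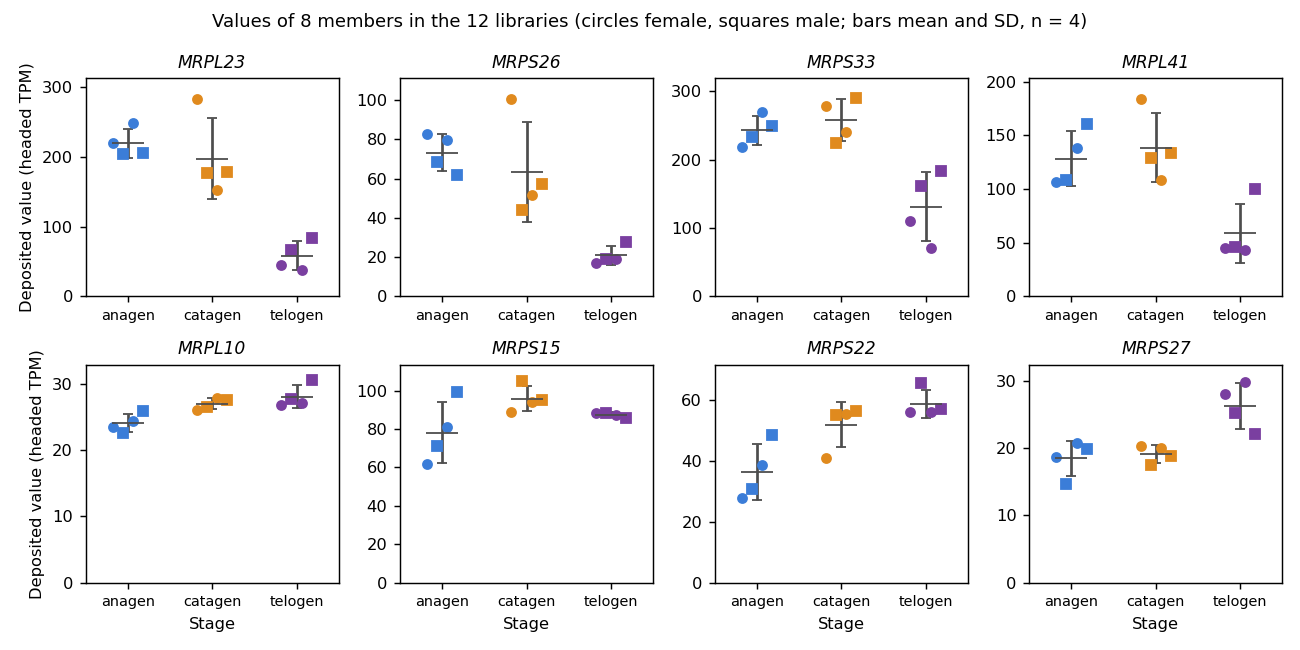
Deposited values (vertical axis, headed TPM, from 0) of 8 members in the 4 libraries of each stage, with circles for females, squares for males and bars for the mean and SD (n = 4). MRPL23, MRPS26, MRPS33 and MRPL41 are lowest in telogen, MRPS27 is highest there, MRPS22 is lowest in anagen, and MRPL10 and MRPS15 are 2 members that did not pass between telogen and catagen.

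The members were also read by their place in the ribosome, with groupings chosen after their values were known. The 4 members grouped as lying at and around the exit of the peptide tunnel, MRPL22, MRPL23, MRPL24 and MRPL45, did not move as one. MRPL23 and MRPL24 fell, the latter by 0.99 on the log2 scale (adjusted p = 0.000595), while MRPL22, which lines the tunnel, read 39.3, 45.4, 40.7 and 45.5 in catagen and 53.02, 64.9, 47.8 and 44.4 in telogen. MRPL22 overlapped between the stages and did not pass (log2 difference 0.28, adjusted p = 0.1). MRPL45, which holds the ribosome at the inner membrane, did not pass either (-0.15, adjusted p = 0.274).

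In the stalk that recruits translation factors, MRPL12, the homologue of bacterial L7/L12, fell by 0.67 on the log2 scale (adjusted p = 0.00464). Its values were 73, 53.5, 53.3 and 49.4 in catagen and 36.5, 32.4, 30.4 and 42.6 in telogen, without overlap. MRPL10, which carries MRPL12 on the ribosome, was nearly flat at 26.03, 26.5, 27.9 and 27.5 in catagen and 26.8, 27.7, 27.1 and 30.6 in telogen (log2 difference 0.05, adjusted p = 0.605). MRPL11, at the base of the stalk, differed by -0.27 (adjusted p = 0.094). Among proteins of the central protuberance, MRPL18, MRPL38, MRPL40 and MRPL46 fell and MRPL48 did not pass, with log2 differences from -0.75 to -0.26.

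The numbered families showed both patterns. Their counts stand beside the same 19.0% lower and 24.5% higher among all genes. Genes numbered up to MRPL36, which encode homologues of bacterial ribosomal proteins, fell in 20 of 28 cases with a median log2 difference of -0.53. Those from MRPL37 upward, nearly all without a bacterial homologue, fell in 14 of 21 cases with a median of -0.39. Among the genes named MRPS with a bacterial homologue 10 of 17 fell and 0 rose, and among the other 11, 7 fell and 1 rose. These counts go by name and include MRPS18A, MRPS30 and MRPS36, whose places are given below. MRPL33, the homologue of bacterial L33, differed by -0.69 (adjusted p = 0.00123), and MRPL41, without a bacterial homologue, by -1.3 (adjusted p = 0.00194).

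Of the 3 MRPS18 paralogs, MRPS18C, which sits in the small subunit where bacterial S18 sits, differed most. Its values were 165, 104, 114 and 158 in catagen and 65.6, 83.2, 55.8 and 90.9 in telogen. The groups did not overlap, and the log2 difference was -0.86 (adjusted p = 0.00258). MRPS18A, which structures place in the large subunit despite its name, differed by -0.28 (adjusted p = 0.0368), a call lost in 8 of 24 alternatives. MRPS18B, in the small subunit, did not pass (-0.16, adjusted p = 0.304). The paralogs share sequence, and how reads were divided between them is not given in the sources used here.

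Other members with known roles spread over the same range. MRPS12, the protein of the decoding centre, differed by -0.74 (adjusted p = 0.00499) and MRPS7, which organises the head of the small subunit, by -0.71 (adjusted p = 0.00317). MRPL44, in which mutations cause a cardiomyopathy, differed by -0.35 (adjusted p = 0.0263), a call lost in 7 of 24 alternatives. MRPS36, which carries a ribosomal name but is known as a component of the 2-oxoglutarate dehydrogenase complex, differed by -0.77 (adjusted p = 0.00208). MRPS30, which structures place in the large subunit, did not pass (-0.14, adjusted p = 0.336). Counting MRPS18A and MRPS30 with the large subunit and leaving MRPS36 out gave 35 large subunit and 15 small subunit genes that fell.

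The genes that did not pass included MRPL17 and MRPS15, each among the 3 highest of its subunit. MRPL17 read 139, 162, 69.1 and 153 in catagen and 96.96, 111, 107.7 and 137 in telogen, with the December female below all telogen libraries (log2 difference -0.14, adjusted p = 0.653). MRPS15, the homologue of bacterial S15, read 89, 105, 94.3 and 94.9 in catagen and 88.3, 88.3, 87.1 and 85.5 in telogen. Its 4 telogen libraries lay close together and just below catagen, and the difference of -0.13 did not pass (adjusted p = 0.413). Both means were lower in telogen than in catagen, at 113 beside 131 for MRPL17 and 87.3 beside 95.7 for MRPS15. A fall that passed was therefore not shared by every abundant member.

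Anagen was compared with telogen, the comparison between the ends of the hair cycle. It shares its telogen libraries with the comparison above, so the values are given side by side and not as separate support. Of the 49 MRPL genes 27 were higher and 3 lower in anagen, and of the 28 MRPS genes 14 were higher and 4 lower (limma, adjusted p under 0.05). Across all genes tested, 23.7% were higher and 29.2% lower. The median log2 difference was 0.42 for MRPL and 0.29 for MRPS, beside -0.07 for all genes. Between 26 and 29 MRPL genes and between 12 and 15 MRPS genes were higher under every alternative tried.

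The largest differences were those of MRPL23 (log2 difference 1.95, SE 0.23, adjusted p = 0.00014), MRPL27 (1.8, adjusted p = 0.000213), MRPL28 (1.7, adjusted p = 0.000169) and MRPL24 (1.51, adjusted p = 8.3e-05). MRPL27, the homologue of bacterial L27 near the site of peptide bond formation, read 90.6 and 91.5 in May, 76.2 and 53.6 in September, 77.7 and 41.8 in November, 34.2 and 46.4 in December, 20.3 and 17.2 in February, and 18.3 and 31.3 in March. May held its highest values and telogen its lowest. In the small subunit the largest were MRPS26 (1.78, adjusted p = 0.000154), MRPS25 (1.42, adjusted p = 0.000475), MRPS16 (1.39, adjusted p = 0.000314) and MRPS24, the homologue of bacterial S3 (1.27, adjusted p = 0.000515). MRPS24 read 80.2, 77.7, 83.6 and 59.8 in anagen and 26.4, 33.2, 22.8 and 42.4 in telogen, without overlap.

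A group of 7 members was lower in anagen than in telogen, namely MRPL22, MRPL49, MRPL10, MRPS22, MRPS10, MRPS27 and MRPS31. MRPS22, a small subunit protein in which mutations cause a human mitochondrial disease, had the largest such difference. It read 27.8 and 30.8 in May, 38.6 and 48.6 in September, 40.9 and 55.2 in November, 55.5 and 56.4 in December, 56.3 and 65.8 in February, and 56.2 and 57.1 in March. The May libraries were the lowest of the year, and the anagen values lay below all telogen values (log2 difference -0.7, SE 0.16, adjusted p = 0.0027). MRPS10, the homologue of bacterial S10, read 31.9, 32.5, 39.6 and 44.4 in anagen and 51.8, 62.8, 47.6 and 56.7 in telogen (log2 difference -0.55, adjusted p = 0.00266).

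The other 5 had smaller differences. MRPL22 differed by -0.56 (adjusted p = 0.00356), MRPS27 by -0.49 (adjusted p = 0.00437), MRPL49 by -0.44 (adjusted p = 0.0185), MRPS31, a protein of the small subunit head, by -0.4 (adjusted p = 0.0103) and MRPL10 by -0.21 (adjusted p = 0.0344). MRPL49 overlapped between the stages. These calls rested in part on May. Without both May libraries, an alternative chosen after seeing the data, 0 MRPL and 2 MRPS genes were lower, and 26 MRPL and 15 MRPS genes were higher. The share of all genes called in that fit is not given here, so these counts cannot be set beside it. In that fit, with 2 anagen libraries, the log2 differences of MRPL22 (-0.43, adjusted p = 0.0536), MRPS10 (-0.37, adjusted p = 0.0507) and MRPS27 (-0.35, adjusted p = 0.0518) were smaller and missed the threshold. The call of MRPL10 was lost in 10 of 24 alternatives. May is also the month in which the 6 skeletal muscle markers other than DES were highest and DES lowest, and their part in these values was not tested.

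**Figure D4:**
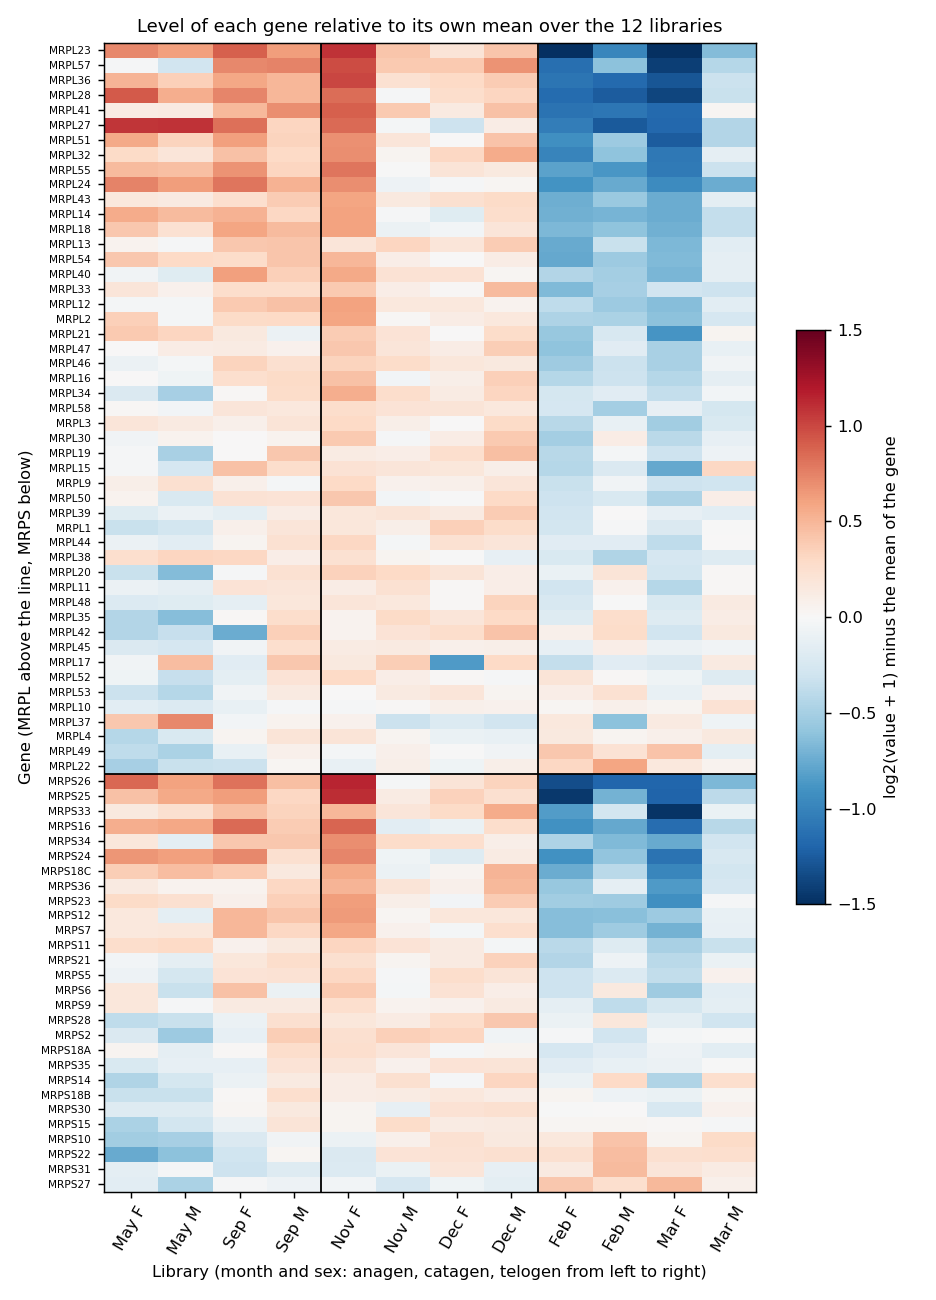
Level of each of the 77 genes (vertical axis, MRPL above the line and MRPS below it) in each library (horizontal axis) as log2 of the value plus 1 minus the mean of that gene over the 12 libraries, in red for higher and blue for lower. Most genes are blue in February and in the March female, paler in the March male and mostly reddest in the November female; the lowest rows of each block, such as MRPL22, MRPS22 and MRPS27, are red in telogen.

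Catagen was compared with anagen, from growth to regression. None of the 77 genes passed in limma (0 MRPL and 0 MRPS genes), where 9 of all genes tested did, or 0.0559%. At an unadjusted p under 0.05 there were 11 MRPL and 5 MRPS genes, and 15.7% of all genes. The lowest adjusted p of a member was 0.263, and the median log2 differences were 0.09 and 0.11. The members with this lowest p, named after their values were seen, were MRPL24, MRPS10 and MRPS22 among others. MRPL24 read 68.4, 62.6, 71.3 and 58.1 in anagen and 65.9, 38.3, 39.8 and 41.2 in catagen, with the November female at the anagen level and the other 3 below it (log2 difference -0.52). Without the November female it passed, with a log2 difference of -0.69 (adjusted p = 0.0191). MRPS22 was higher in catagen by 0.52 and MRPS10 by 0.41 without passing.

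Across the year, 40 of the 77 genes differed among the 6 months (limma F test, adjusted p under 0.05), beside 32.7% of all genes. The number was 25 without the May female and 21 without the February male. The lowest monthly mean fell in February for 26 MRPL and 11 MRPS genes, in March for 8 and 6, and in May for 14 and 10. The highest monthly mean fell in November for 15 MRPL and 10 MRPS genes. May thus held the lowest mean of 24 of the 77 genes although its summed values were above those of telogen. These are ranks of means of 2 libraries.

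Among the 6 comparisons of neighbouring months, members passed from December to February and from March to May and in none of the other 4. From December to February, 21 MRPL and 4 MRPS genes were lower and 0 higher, beside 7.69% lower and 8.90% higher among all genes. The largest in each subunit were MRPL23 (log2 difference -1.57, adjusted p = 0.0242), MRPL28 (-1.49, adjusted p = 0.0249), MRPS26 (-1.53, adjusted p = 0.0224) and MRPS25 (-1.37, adjusted p = 0.0319), with 2 libraries in each month. The 25 calls were sensitive to single libraries: 0 were left without the December female, the December male or the February male, 1 without the February female, 13 without any 1 of the 4 anagen libraries, and 39 without either March library.

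From March to May, 14 MRPL and 6 MRPS genes were higher in May, beside 13.9% of all genes, and 3 MRPL and 3 MRPS genes were lower, beside 13.4%. The largest in each subunit and direction were MRPL27 (log2 difference 1.88, adjusted p = 0.0072), MRPL23 (1.88, adjusted p = 0.00906), MRPS26 (1.66, adjusted p = 0.00987), MRPS16 (1.34, adjusted p = 0.0187), MRPS22 (-0.93, adjusted p = 0.0085), MRPS10 (-0.67, adjusted p = 0.0121), MRPL49 (-0.56, adjusted p = 0.0417) and MRPL22 (-0.53, adjusted p = 0.0374). Of the 26 calls, 1 was left without either May library, 6 without the March female and 40 were made without the March male.

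No member passed in limma for September against May, November against September, December against November or March against February, where 0.137%, 0.0186%, 0% and 0.00621% of all genes did. At an unadjusted p under 0.05 there were 21 members for September against May, beside 9.77% of all genes, and 0 for each of the other 3, beside 1.86%, 3.65% and 3.95%. Males and females, compared with month as a block, gave 0 members in limma, beside 0.0559% of all genes. There, 7 members had an unadjusted p under 0.05, beside 7.36% of all genes, and the lowest adjusted p was 0.605. The widest of these, MRPL17, averaged 107 ± 23.4 (SD, n = 6) in females and 150.4 ± 22.7 in males. The sexes overlapped across months, and the male was above the female in each of the 6 months.

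The March male was the highest of the 4 telogen libraries for 45 of the 77 genes, and its median ratio to the mean of the other 3 was 1.18. It is also the telogen library with the lowest share of mitochondrial genome transcripts. Without it, 36 MRPL and 17 MRPS genes fell, beside 21.6% of all genes in that fit, and 2 MRPL and 2 MRPS genes rose, beside 26.2%, from catagen to telogen. Counting telogen against both other stages at once, all 4 telogen libraries lay below all 8 others for 24 of the 49 MRPL and 11 of the 28 MRPS genes, beside 12.8% of all genes, and above them for 0 MRPL and 1 MRPS gene, beside 14.1%.

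The other genes of mitochondrial translation were taken from lists chosen by function. Their counts from catagen to telogen stand beside the 19.0% lower and 24.5% higher among all genes, and no difference between a list and the members was tested. Of 5 ribosomal proteins without an MRP name 2 fell from catagen to telogen, CHCHD1 and AURKAIP1, both of the small subunit, and 0 rose. CHCHD1 read 115, 63.5, 64.3 and 83.9 in catagen and 16.9, 29.6, 19.9 and 32.6 in telogen (log2 difference -1.69, adjusted p = 0.000389). AURKAIP1 differed by -0.52 (adjusted p = 0.00803), and DAP3, a GTP-binding protein of the small subunit, by 0.07 (adjusted p = 0.564).

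Of 28 assembly genes 8 fell and 4 rose. SPG7, a subunit of the protease that matures MRPL32, differed by -0.84 (adjusted p = 0.000842), and MRM1, which methylates the large ribosomal RNA, by -0.75 (adjusted p = 0.00334). METTL15, which methylates the small ribosomal RNA, rose by 0.54 (adjusted p = 0.0017), and METTL17, an assembly factor of the small subunit, by 0.45 (adjusted p = 0.0319), the latter call lost in 6 of 24 alternatives. Of 12 translation factors 3 fell and 2 rose. TUFM, the elongation factor that brings transfer RNA to the ribosome, differed by -0.8 (adjusted p = 0.00207), and MTFMT, which formylates the initiator, by -0.49 (adjusted p = 0.00288). OXA1L, which inserts new chains into the inner membrane, rose by 0.37 (adjusted p = 0.0201) and the elongation factor homologue GUF1 by 0.31 (adjusted p = 0.0122), calls lost in 5 and 2 of 24 alternatives.

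Of 22 genes listed for charging mitochondrial transfer RNA 6 fell and 2 rose. Most of them are mitochondrial synthetases. GARS and KARS also serve the cytosol, and QRSL1, GATB and GATC form an amidotransferase. CARS2 for cysteine differed by -1.01 (adjusted p = 0.000767) and LARS2 for leucine by -0.72 (adjusted p = 0.00227), while WARS2 for tryptophan rose by 0.41 (adjusted p = 0.00298). Of 16 genes listed for mitochondrial DNA transcription, DNA replication and RNA handling 9 fell and 0 rose. POLG, POLG2 and SSBP1 are the replication genes among them. SLIRP, which with LRPPRC keeps mitochondrial messenger RNA stable, read 320.3, 241, 313 and 396 in catagen and 97.5, 110.3, 82.6 and 197 in telogen (log2 difference -1.44, adjusted p = 0.00155). LRPPRC differed by -0.29 (adjusted p = 0.0184), a call lost in 5 of 24 alternatives, and POLRMT, the mitochondrial RNA polymerase, by -0.89 (adjusted p = 0.00164). TFAM, which packages mitochondrial DNA and helps to start its transcription, did not pass (0.23, adjusted p = 0.171).

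The median log2 differences of these 5 lists were -0.00103, -0.13, -0.05, -0.17 and -0.32 in the order given, beside -0.49 for MRPL and -0.39 for MRPS. Of the 13 protein-coding transcripts of the mitochondrial genome, which the mitochondrial ribosome translates, 12 rose and 0 fell, with a median of 1.84. Of 73 cytosolic ribosomal proteins 47 fell and 1 rose, with a median of -0.78. In anagen against telogen 23.7% of all genes were higher and 29.2% lower. The same 5 lists, of 5, 28, 12, 22 and 16 genes, gave 2, 12, 3, 8 and 9 genes higher. They gave 0, 4, 4, 3 and 3 genes lower. There CHCHD1 differed by 1.88 (adjusted p = 0.000128), TUFM by 0.81 (adjusted p = 0.00115), POLRMT by 0.97 (adjusted p = 0.000585) and TFAM by -0.58 (adjusted p = 0.00295).

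**Figure D5:**
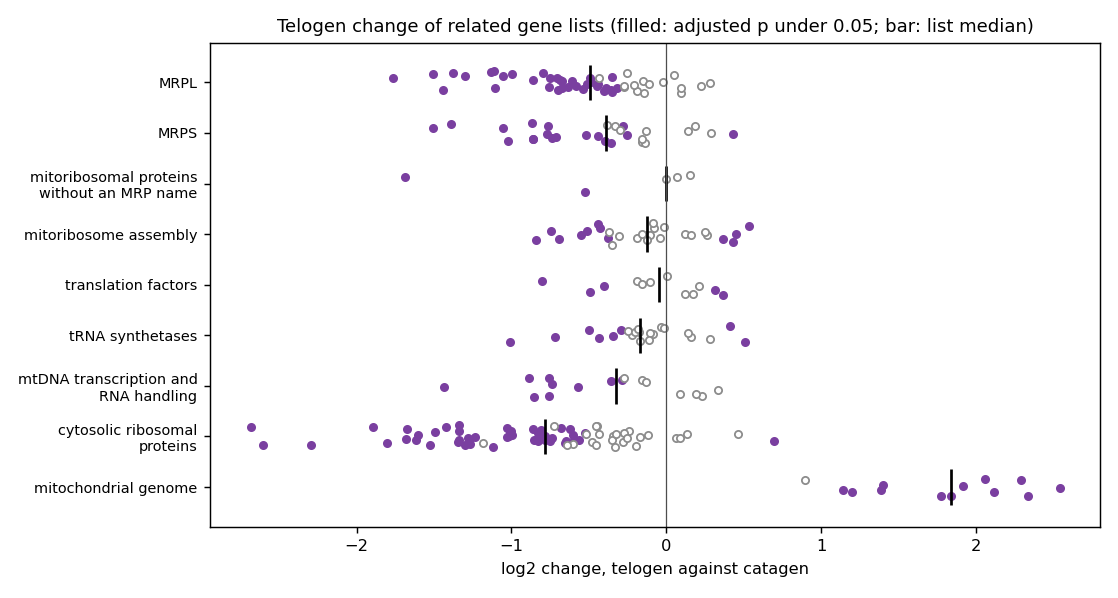
Log2 difference between telogen and catagen (horizontal axis) of each gene in the MRPL and MRPS families and in 7 related lists (vertical axis), with filled points for genes at an adjusted p under 0.05 and a bar for the median of each list. MRPL and MRPS genes lie mostly to the left, the genes of assembly and translation lie on both sides of 0, and the mitochondrial genome lies to the right.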

How the data were processed

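RNA from secondary hair follicles was sequenced as 12 libraries, in 6 months with 1 female and 1 male each. The tools named per the submitters' processing notes are kallisto 0.46.1, which estimates transcript abundance, and sleuth 0.30.0; the genome build and annotation are not given in the sources used here. The authors deposited 1 signal value per gene and library under the heading TPM. Library sums of the deposited signal differ (904623 to 1127797), so the values had been rescaled by steps not given in the sources used here, and the depth is unknown.

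Values were taken as log2(value + 1), which understates changes of low genes. A gene was tested if 2 or more libraries had a value of 1 or more, which 16095 of 20326 met. The tests were linear models in limma 3.58.1 (R 4.3.3) with a variance trend, with stages as groups of 4 libraries, months as groups of 2, and month as a block for the sexes. Benjamini-Hochberg adjustment ran over all genes tested, with a threshold of 0.05. The method was tested on simulated data. No pair of libraries had equal values in more than 1.55% of the genes tested.

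The members and lists were chosen with earlier results of these data known. Per stage comparison and subunit, the 4 largest rises and 4 largest falls were named among members that passed with stages that did not overlap and a mean of at least 5. Per month comparison it was the 2 largest each way, plus the 3 highest means of each subunit and members set by role. The month results above give the 2 largest each way in each subunit. From related lists it was the 2 largest each way, of which 1 is not reported here. Other members are said to be chosen after their values were seen, or stand for their place in the ribosome, as do MRPL45, MRPL18, MRPL38, MRPL40, MRPL46 and MRPL48; MRPL49 completes a count. Alternatives were an added constant of 0.5, no filter or one at 5, 3 other scalings, no trend, a block for the replicate number, months averaged, only the 2 stages compared, another subunit assignment and each library left out. Leaving out both May libraries, and scaling outside the mitochondrial genome and cytosolic ribosomal proteins, were chosen after seeing the data.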

Additional observations from a re-analysis of the deposited data

Results flagged for a closer look

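Stage groups of 4 libraries, 102 in all, were examined for 31 members and for the subunit sums and their ratio. The 31 were those chosen by the naming rule or set by role, so others such as MRPL45 and MRPL49 were not examined. Of the 102 groups, 9 held 1 library far from the other 3. There the gap to its nearest neighbour passed the critical value of Dixon's test for 4 samples. Chance gives about 1 in 20 such groups. In catagen it was the November female each time: MRPL36 at 46.1 beside 26.5 to 29.6 (gap 0.842 of the range), MRPL24 at 65.9 beside 38.3 to 41.2 (0.895) and MRPS22 at 40.9, the lowest, beside 55.2 to 56.4 (0.924). In telogen the March male was the highest for MRPL36 at 17.9 beside 8.69 to 9.99 (0.858), MRPL28 at 23.7 beside 10.98 to 12.97 (0.843), MRPL41 at 100.5 beside 43.1 to 45.7 (0.954) and MRPS12 at 25.6 beside 17.4 to 18.7 (0.848). The February male was the highest in telogen for MRPS22 at 65.8 beside 56.2 to 57.1 (0.912) and MRPS31 at 24.3 beside 18.9 to 19.7 (0.847).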

How the results depend on the processing

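Of 103 gene results, 79 passed, and 66 of these passed under every alternative; 13 lost the call at least once, and 7 others gained one. From catagen to telogen 28 to 37 MRPL and 13 to 19 MRPS genes were lower over all alternatives. The number of MRPS genes higher was 2 with the filter at 5 and 2 with libraries scaled to equal sums, where 1 MRPL gene was higher. Leaving out single libraries gave 0 to 2 MRPL and 1 to 2 MRPS genes higher (2 without the December female or the March male for MRPS, 2 without the March male for MRPL), 1 to 6 MRPL genes lower in anagen than in telogen (1 without either May library, 6 without the September male), 0 to 1 members (0 to 1 MRPL lower) for catagen against anagen, 0 to 39 for February against December, 1 to 40 for May against March and 21 to 53 for the F test over months. Scaling by median ratio gave 40 for February against December. Without both May libraries 0 MRPL and 2 MRPS genes were lower in anagen than in telogen. With scaling outside the mitochondrial genome and cytosolic ribosomal proteins, the summed means in anagen, catagen and telogen were 3357.8, 3600.4 and 2479.3 for MRPL and 1829.9, 1985.9 and 1385.3 for MRPS; with MRPS18A and MRPS30 moved and MRPS36 left out, the MRPS sum in anagen was 1332.1. The order of the stages in these sums was that of the deposited scale. Directions that turned belonged to genes that did not pass: under scaling by median ratio MRPL10 (-0.042) and DAP3 (-0.027) in telogen against catagen, and DAP3 (0.013), MRPS18B (0.012) and MRPS30 (0.072) in anagen against telogen; without both May libraries MRPS15 (0.035), MRPS18B (0.16) and MRPS30 (0.13); and without 1 library MRPS18B (-0.19 to 0.0073, with 0.0065 or 0.0073 without a May library) and MRPS30 (-0.0775 to 0.037). The cause was not tested.

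The replicate number marks sex, and the labels do not tell whether it also marks an animal; the samples were not treated as paired. The deviations of same-sex libraries correlated over 0.1 in 9 of 15 pairs of months (median 0.11, range -0.26 to 0.44). With the replicate number as a block, 51 members passed for telogen against catagen, 48 for anagen against telogen, 0 for catagen against anagen, 21 for February against December, 26 for May against March and 41 for the F test. The unknown read depth leaves the counting error of each value unknown, and 2 libraries a month limit the month comparisons.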
